A study of Bos taurus with 18 samples.

Results

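The gestation length (GL) experiment compared the sperm DNA of 8 adult Holstein bulls. Of the 18 bulls of the series, the high-GL group held H03, H09, L03 and L05. The low-GL group held L07, L01, H05 and H02. The groups stand for a high or low predicted transmitting ability, which is the genetic merit for gestation length that a bull passes to its progeny and not a gestation of its own. Each bull gave 1 sample, so the 4 bulls of a group are biological replicates, and no bull served as an untreated control. The first letter of a bull's name is part of its title and does not give its GL group.

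The same bulls carried labels of other traits. For sire conception rate (SCR), H03 was high and L03 low among the high-GL bulls, and H02 was high and L01 low among the low-GL bulls. For body depth, L03 was high and H09 low in one group, and H02 was high and H05 low in the other. H03 was also high for sire calving ease and H09 high for cow conception rate, 2 labels without a counterpart among the low-GL bulls. L05 and L07 carried no other label.

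Sperm DNA is methylated at most CpG dinucleotides, while CpG-dense promoters, many of them of developmental genes, stay largely free of methylation. The pattern is laid down in the male germ line from before birth and is then kept through spermatogenesis. After fertilization most of it is erased from the paternal genome, and imprinted regions are the best known sites that keep their parental mark. Placental and fetal growth depend on several imprinted genes. Comparing sperm of bulls whose progeny are carried for longer or shorter periods asks whether the paternal methylome differs with this merit.

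Whole-genome bisulfite sequencing gave, for CpG positions with at least 10 reads, the share of reads that were methylated, in percent. Both strands of a CpG were listed as separate positions. A bull listed from 5034824 (H09) to 16641749 (H05) positions, with a median of 9985901. The count of reads was listed for H03, L03, H02 and L01 only, which are 2 bulls of each GL group and also the 4 bulls with an SCR label. In these bulls the median was 13 or 14 reads at the positions used below, and the depth of H09, L05, H05 and L07 is unknown. Of 33370714 autosomal positions listed by any of the 8 bulls, 1438785 (4.31%) were listed by at least 3 bulls of each group. These are called qualifying positions here, and 329377 of them were listed by all 8 bulls. Qualifying positions were less methylated than the rest: their mean ran from 67.3% in H09 to 71.1% in L05, against 79.3% in H09 to 83.3% in L01 over all autosomal positions a bull listed.

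Mean methylation at the positions listed by all 8 bulls did not separate the groups. These 329377 positions lay at a lower level than the qualifying positions as a whole. Of them, 170029 had at most 30 reads where counts were listed. Their mean was 42.3% in H03, 43.1% in H09, 44.6% in L03 and 42.0% in L05. The low-GL bulls had 42.8% in H02, 41.8% in H05, 43.3% in L01 and 42.4% in L07. The groups overlapped, with a mean of 43.0% ± 1.14 for high GL and 42.6% ± 0.657 for low GL (SD, n = 4 each). The difference of 0.436 percentage points had p = 0.6 in a two-sided exact permutation test of 70 arrangements (0.8 after Benjamini-Hochberg adjustment over the 4 values), a design in which p cannot fall below 0.0286.

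Positions were then divided by their mean level over the 8 bulls. At the 154253 positions under 20%, the class to which unmethylated CpG-dense regions belong, high-GL bulls had 8.29% ± 1.15 and low-GL bulls 8.09% ± 0.855 (SD, n = 4 each, exact permutation p = 0.914). The 72391 positions between 20% and 80% had 43.8% ± 2.76 in high-GL and 42.7% ± 1.26 in low-GL bulls (SD, n = 4 each, exact permutation p = 0.6). L03 was the highest bull of this class with 47.7%, and H05 the lowest with 40.9%. At the 102733 positions over 80%, the values were 94.6% ± 0.661 and 94.3% ± 0.264 (SD, n = 4 each, exact permutation p = 0.429). No class had groups that stood apart, and the adjusted p of the classes was 0.8 or 0.914. The differences moved with single bulls. Over all positions the difference was -0.0927 points without L03 and 0.166 points without H05, and between 20% and 80% it was -0.207 and 0.501 points. Under 20% it turned negative without H09, L03 or H05, and over 80% it fell to 0.0992 points without L03.

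**Figure D1:**
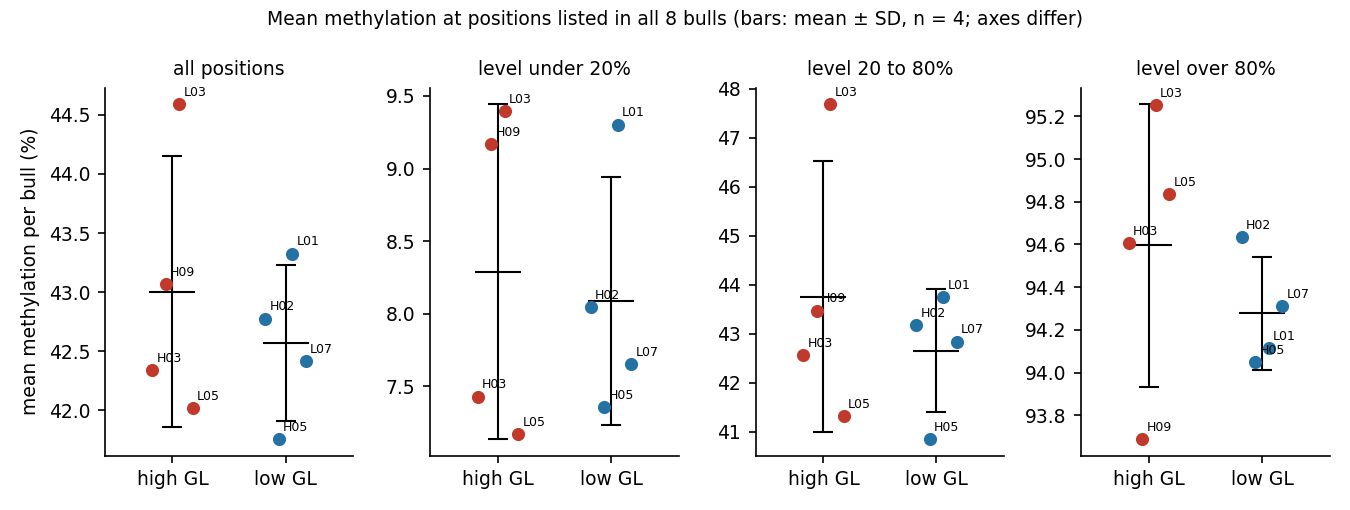
Mean methylation (percent) of each bull at the positions listed by all 8 bulls, for all positions and for 3 classes of level, with the mean and SD of each group (n = 4). High-GL and low-GL bulls overlapped in each panel, and L03 was the highest bull over all positions with 44.6%. The vertical axes differ and do not start at 0.

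The methylomes of 2 bulls resembled each other to the same degree within and between groups. Over the 46179 tiles described next, the Pearson correlation of a pair of bulls lay between 0.968 and 0.978. Its mean was 0.9737 within the groups and 0.9738 between them (exact permutation p = 0.886). H09 had the lowest mean correlation with the others (0.971) and L05 the highest (0.976). Among the 7447 tiles between 20% and 80%, pairs correlated between 0.828 and 0.892, again with no larger value within the groups (0.865 within, 0.867 between, exact permutation p = 0.514). For the 4 bulls with listed counts, squared differences at positions between 20% and 80% were set against those that reads alone would give if 2 bulls had the same level. That ratio was 2.11 for the high-GL pair H03 and L03 and 2.15 for the low-GL pair H02 and L01, and it ran from 1.97 to 2.14 for the 4 pairs across the groups. The reference counts reads as independent molecules and covers counting error only. The ratios within the groups lay close to those across them.

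Regions were compared in tiles of 2000 bp. A tile was tested when each bull listed at least 3 qualifying positions in it, and each bull received a position-adjusted value, in which every position is centred before averaging so that bulls listing different positions stay comparable. Such a value can pass 0% or 100% slightly. The 46179 tested tiles held 44.1% of the qualifying positions, with a median of 8 positions per tile. Most were highly methylated: 33694 tiles lay over 80%, 7447 between 20% and 80%, and 5038 under 20%.

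No tile passed the test of limma at a Benjamini-Hochberg adjusted p under 0.05 with a difference over 5 points (0.0% of tiles called), and the smallest adjusted p was 0.795. At an unadjusted p under 0.05 there were 2222 tiles, 4.81% of those tested. Of these, 1470 were higher and 752 lower in the high-GL bulls. A logistic regression was run as an alternative with an assumed depth of 10 reads at every position, since 4 of the 8 bulls had no listed counts. It called 627 tiles when it treated these reads as independent and 0 when the spread between bulls entered as overdispersion in an F test. The F test gave an unadjusted p under 0.05 in 891 tiles, fewer than the 2222 of limma. Its 0 calls therefore cannot show which of the 627 would hold. Over all tested tiles 55.7% had a higher mean in the high-GL bulls and the median difference was 0.298 points. Bulls of a group had an SD of 0.441 points in their own median deviation. That SD is a spread of single bulls and not the error of a difference of group means. The median difference was 0.0342 points without L03, 0.14 without H05 and 0.479 without H09, and between these values without each of the other bulls. In 1279 tiles (2.77%) the 4 high-GL bulls did not overlap the 4 low-GL bulls, 849 of them higher and 430 lower in the high-GL group.

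Differences were small beside the spread between bulls of a group. The median absolute difference of a tile was 1.58 points and the median standard error 2.30 points. Differences over 10 points occurred in 771 tiles and over 20 points in 22. In 73.6% of the tiles the 95% confidence interval lay within 10 points of 0, and in 97.4% within 20 points. The classes of level differed in this respect. Under 20%, the median SD within a group was 1.86 points and 96.9% of the intervals lay within 10 points of 0. Between 20% and 80%, the SD was 6.42 points and that share 26.2%, so that differences of 10 points could often not be detected there. This intermediate class also had the largest share of differences over 10 points (6.77%), against 0.76% over 80% and 0.218% under 20%. Tiles with few positions varied more: among tiles over 80%, those with 3 to 5 positions had a median SD of 3.41 points and those with at least 20 positions 2.01 points. An unadjusted limma p under 0.05 was reached by 6.68% of the former and 0.849% of the latter.

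The 10 tiles with the smallest p had from 4 to 6 positions each, and in all of them the groups did not overlap. A choice by smallest p favours such separation, so it is no evidence of a difference. At chr7:21350001-21352000 the high-GL bulls had 88.5% (H03), 81.9% (H09), 91.1% (L03) and 86.9% (L05), and the low-GL bulls 51.8% (H02), 64.8% (H05), 65.7% (L01) and 64.5% (L07). All high-GL bulls lay above all low-GL bulls, with a mean of 87.1% ± 3.89 against 61.7% ± 6.61 (SD, n = 4 each, limma adjusted p = 0.795). With only the positions listed by all 8 bulls the difference fell from 25.4 to 13.5 points, and its unadjusted limma p then lay above 0.05. The 7 bulls without a GL label that had a value there ran from 65.6% to 92.9% with a median of 74.5%, between the groups. At chr7:29454001-29456000, another tile of this chromosome, the values were 29.7%, 29.4%, 34.6% and 26.1% in H03, H09, L03 and L05. They were 20.5%, 15.2%, 18.5% and 15.8% in H02, H05, L01 and L07, and 8 bulls without a GL label had 12.2% to 23.4%. Each high-GL bull was here above every low-GL bull and every bull without a GL label. In the other 9 of the 10 tiles the range of the bulls without a GL label reached into both groups.

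In all, 5 of the 10 tiles were higher and 5 lower in the high-GL bulls. The other tiles with higher values were chr15:25994001-25996000 (89.8% ± 9.36 against 62.8% ± 6.21), chr23:4078001-4080000 (94.7% ± 3.06 against 75.4% ± 5.59), and chr24:30330001-30332000 (29.7% ± 3.58 against 17.6% ± 3.01, SD, n = 4 each). Lower in the high-GL bulls was chr8:28764001-28766000, the largest difference of the 10, with 36.5% in H03, 45.2% in H09, 61.9% in L03 and 68.0% in L05. The low-GL bulls had 90.1%, 93.3%, 92.8% and 79.4% there, and 7 bulls without a GL label covered 31.4% to 98.2%, which is wider than both groups together. Its difference was -36.0 points, and -22.0 points with only the positions listed by all 8 bulls. The other tiles with lower values were chr3:102674001-102676000 (15.4% ± 2.40 against 28.9% ± 4.66), chr10:87742001-87744000 (20.2% ± 1.93 against 31.1% ± 2.35), chr22:194001-196000 (71.7% ± 2.39 against 92.0% ± 6.98) and chr18:14532001-14534000 (16.3% ± 2.31 against 25.04% ± 1.56). Each of these had a limma adjusted p of 0.795.

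Groups without overlap made up 2.77% of all tested tiles, as given above. Of the 14945 tiles with at least 10 positions, 338 had groups without overlap, which is a lower share. Among these, the largest loss in high-GL bulls was at chr1:152658001-152660000, where H03 had 43.6%, H09 54.3%, L03 54.1% and L05 45.0%, and H02 had 84.4%, H05 63.8%, L01 56.4% and L07 61.2%. H02 stood above the rest of its group, and L01 lay only just above the high-GL bulls (limma adjusted p = 1). The difference of -17.2 points became -11.3 points without H02. Losses followed at chr26:21432001-21434000 (73.6% ± 2.78 against 89.0% ± 5.57, SD, n = 4 each), chr22:15686001-15688000, chr19:13746001-13748000 and chr22:39274001-39276000, with differences of -15.4, -12.1, -9.96 and -9.76 points. The first of these was -8.55 points with only the positions listed by all 8 bulls. The largest gain was at chr3:114140001-114142000, with 91.2%, 86.8%, 95.7% and 91.4% in H03, H09, L03 and L05 and 67.4%, 72.6%, 79.6% and 78.9% in H02, H05, L01 and L07. Gains of 15.4 points were found at chr13:47382001-47384000 and chr26:12338001-12340000, and 2 adjoining tiles from chr29:5712001 completed the list. These tiles were chosen for their separation, so it is no evidence of a difference. In all 10 the range of the bulls without a GL label reached into both groups, as the plot of named tiles shows.

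**Figure D2:**
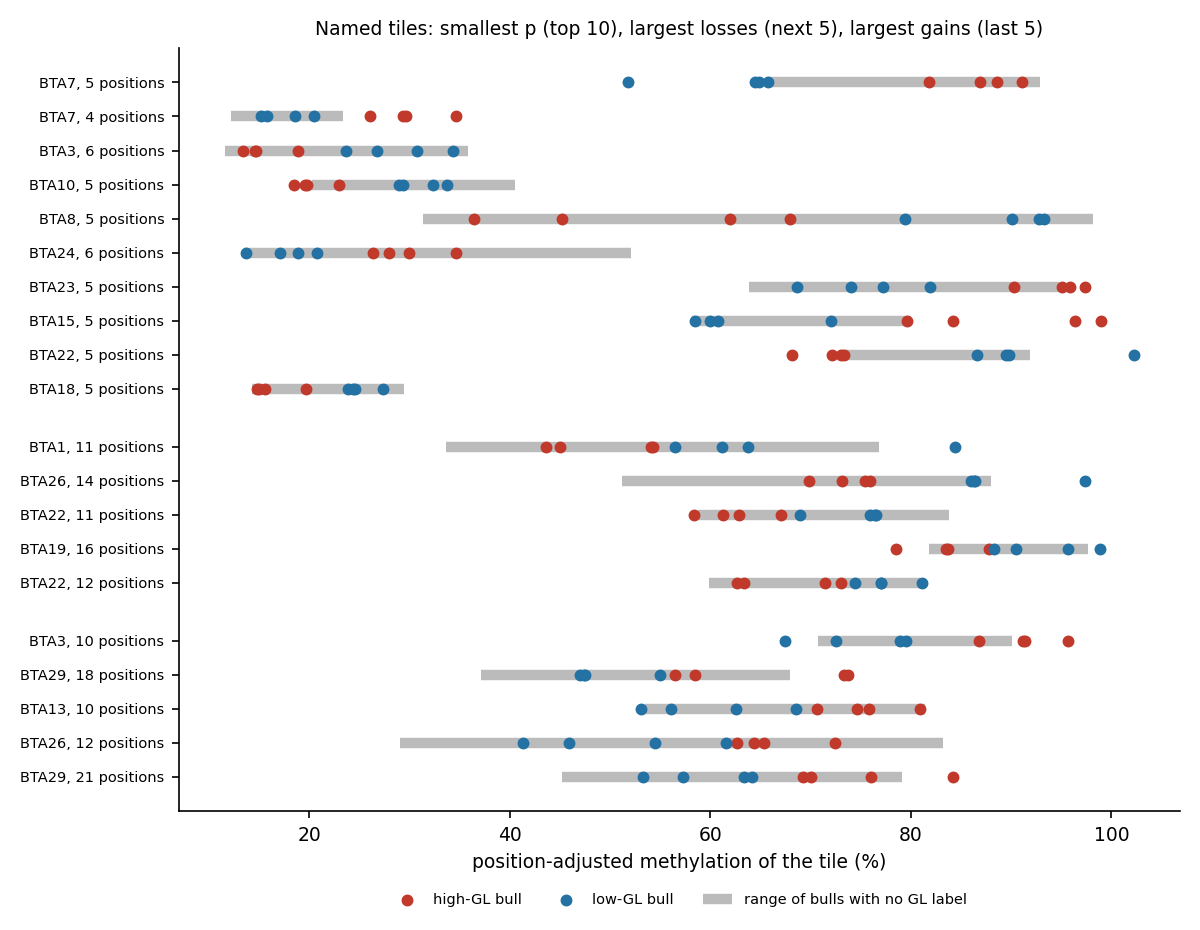
Position-adjusted methylation (percent, horizontal axis) of 20 tiles, 1 point per bull, with the range of the bulls without a GL label as a grey bar. Each row gives the chromosome (BTA) and the number of positions; the high-GL bulls did not overlap the low-GL bulls in any row, and no tile had a limma adjusted p under 0.795.

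Of the 2222 tiles with an unadjusted p under 0.05, 897 (40.4%) had another tested tile beside them or 1 tile away, as had 46.0% of all tested tiles, so most could form no run. In runs of 2 or more such tiles in 1 direction lay 114 of them. Of all runs, 2108 held a single tile, 33 held 2, 6 held 3, 3 held 4, 2 held 5 and 1 held 8. The longest run covered 8 adjoining tiles at chr29:5710001-5726000 and held 146 positions. Averaged over the run, the high-GL bulls had 60.5% (H03), 71.2% (H09), 70.1% (L03) and 60.1% (L05), and the low-GL bulls 49.4% (H02), 51.1% (H05), 53.7% (L01) and 57.6% (L07). The groups did not overlap, and the mean difference was 12.5 points. It was 13.7 points in the bulls with listed counts and 11.3 points in the other 4, and 139 of the 146 positions were higher in the high-GL bulls. Runs were made of tiles with an unadjusted p under 0.05 in 1 direction, which fixes most of this likeness: both kinds of file had the same sign in 99.8% of the tiles with such a p, against 49.7% of all tested tiles. The values of a run are therefore a description. The run lies along a dip of methylation, whose lowest tile had 35.2% to 47.2% in the high-GL bulls and 27.6% to 33.3% in the low-GL bulls. At a second and deeper dip, 13 kb before the centre of the run, the difference was 0.118 points. In the 15 tested tiles within 20 kb on both sides the difference was 5.69 points, and the groups did not overlap there either. Of these tiles 3 had an unadjusted p under 0.05, and the tile 21 kb past the centre had a difference of 20.4 points, larger than the 16.3 points of the run's largest tile. The 10 bulls without a GL label covered 44.2% to 69.9% over the run, with a median of 57.7%. Their range reached into both groups, while H09 and L03 lay above all of them. The smallest limma adjusted p of its tiles was 1.

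Both other runs of the list held 5 tiles at a low level. At chr18:33452001-33462000 the mean was 24.5% ± 5.45 in high-GL and 16.3% ± 2.73 in low-GL bulls, and at chr22:42404001-42414000 it was 23.0% ± 5.10 and 16.4% ± 2.03 (SD, n = 4 each). In both, H09 lay among the low-GL bulls, with 17.3% and 16.2%, so the groups overlapped. Their differences were 12.1 and 10.2 points in the bulls with listed counts and 4.34 and 3.06 points in the others.

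**Figure D3:**
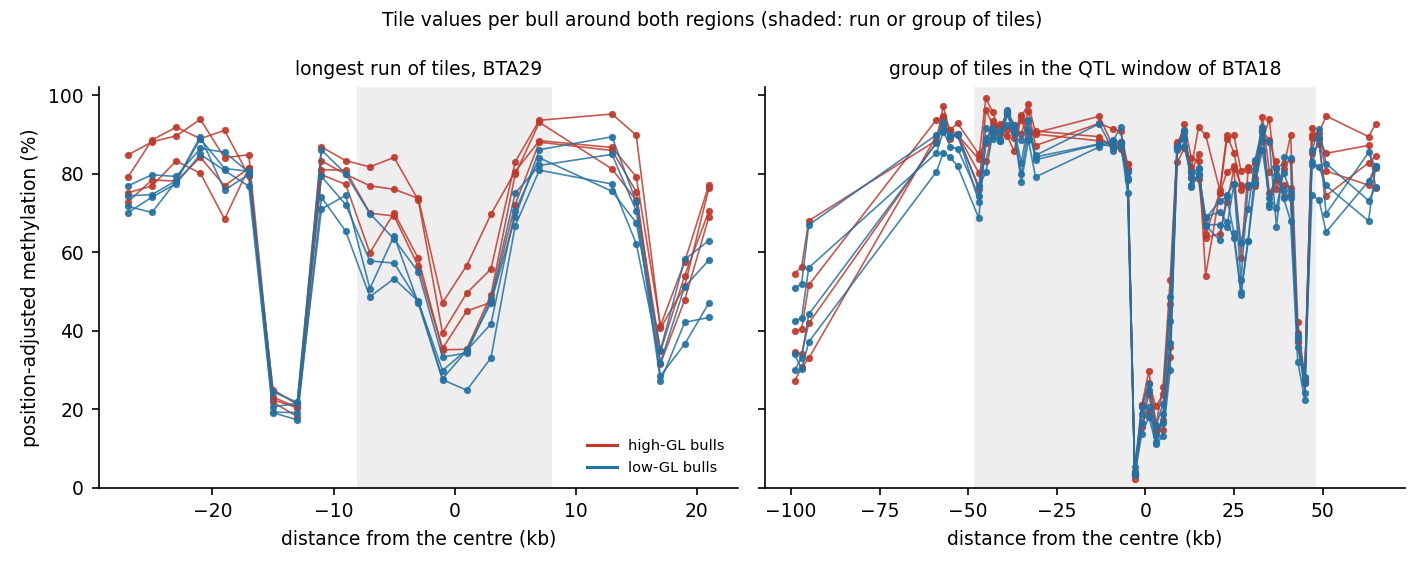
Position-adjusted methylation (percent) of each tested tile, 1 line per bull, against the distance from the centre of the longest run on BTA29 and of the group of tiles in the BTA18 window (kb). The high-GL lines lay above the low-GL lines through most of the shaded run on BTA29 (means of 65.5% and 53.0%), while on BTA18 the lines crossed in many tiles.

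Methylation was next described at the 25 genes fine-mapped for gestation length and in the windows of its 9 quantitative trait loci (QTL). Genotypes of the bulls were not used here, so the values are given without reference to alleles. With 2000 bp added on each side, 21 of the 25 genes held qualifying positions, 888 in all, 15 had a value in all 8 bulls, and 10 had a tested tile. None of the 15 had groups without overlap. Their difference over a gene's positions had a median of 0.398 points, with 10 genes higher and 5 lower in the high-GL bulls. The 33 tested tiles at the genes had a median difference of -0.183 points, beside 0.298 points over all tested tiles.

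ZNF613 on BTA18 encodes a zinc finger protein. The gene held 10 qualifying positions at chr18:58100688-58141930 and no tested tile. L01 had too few positions for a value, and the other bulls had 14.6% (H03), 18.6% (H09), 11.5% (L03) and 13.4% (L05) against 14.5% (H02), 15.3% (H05) and 18.6% (L07). The groups overlapped at a low level, with a highest value of 18.6% in both, while L03 and L05 lay below every low-GL bull with a value.

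Genes of the axoneme and cytoskeleton lie on BTA19. DNAH2, a dynein heavy chain of the sperm tail and of cilia, had 94.5%, 91.9%, 95.1% and 94.7% in H03, H09, L03 and L05 and 90.9%, 92.6%, 93.6% and 93.2% in H02, H05, L01 and L07. H09 lay inside the low-GL range, and the means were 94.0% ± 1.45 and 92.6% ± 1.19 (SD, n = 4 each). MYH10, a non-muscle myosin heavy chain, had 94.6% ± 0.925 in high-GL and 95.2% ± 0.638 in low-GL bulls. Its tile of smallest p, at chr19:28738001-28740000, had 97.2%, 93.3%, 94.4% and 96.0% against 100%, 97.2%, 100% and 100%, a difference of -4.07 points on 3 positions with a limma adjusted p of 1. That of DNAH2, chr19:28040001-28042000, had 96.5% ± 1.76 against 91.9% ± 5.18 (SD, n = 4 each). NDEL1, which regulates cytoplasmic dynein, had 78.4% ± 2.57 and 78.0% ± 1.05.

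NRG2, a growth factor of the neuregulin family, had 95.6% ± 0.751 in high-GL and 94.95% ± 0.476 in low-GL bulls (SD, n = 4 each). One of its 8 tested tiles, chr7:52776001-52778000, had 98.5%, 96.4%, 98.6% and 95.7% in H03, H09, L03 and L05 and 91.0%, 98.0%, 85.7% and 85.4% in H02, H05, L01 and L07, with H05 inside the high-GL range (limma adjusted p = 1). WWP2, a ubiquitin ligase, was the gene with most positions (213) and had 91.9% ± 0.686 and 91.7% ± 0.700. Its tile of smallest p, chr18:37006001-37008000, had 100.4%, 94.5%, 99.4% and 100% in H03, H09, L03 and L05 and 98.3%, 89.98%, 93.6% and 93.0% in H02, H05, L01 and L07, with H02 above H09 (limma adjusted p = 1). NFYB, a subunit of the CCAAT-binding factor NF-Y, had 28.1% ± 1.45 and 29.9% ± 2.16, and its tile chr5:68128001-68130000 just past the end coordinate of the gene lay under 6% in every bull. ARID4B, a chromatin regulator needed for male fertility in mice, had 88.6% ± 0.721 and 88.9% ± 0.498, and its tile chr28:8030001-8032000 had 79.1% ± 5.01 and 83.4% ± 7.54. HSF1, the heat shock factor, had the largest difference of the 15 genes, 93.6% ± 4.39 against 90.2% ± 3.28, on 12 positions, of which the bull with fewest listed 3.

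The other genes with a value in all 8 bulls were LOC107131356, a long non-coding RNA gene, and CYSTM1, PCDHA13, CDKL1, ZNF16, ARHGAP39 and SCRT1, with differences from -0.721 to 2.08 points. The tiles of smallest p were chr4:95530001-95532000 at LOC107131356 (2.32 points), chr7:53108001-53110000 at CYSTM1 (-2.79 points), chr10:43322001-43324000 at CDKL1 (-0.64 points) and chr14:1782001-1784000 at SCRT1 (2.08 points), and in all 4 the groups overlapped. DGAT1, which makes triglycerides, and its neighbours BOP1, FBXL6 and SLC52A2 held no qualifying position, and HCFC2, SLC39A4, CPSF1, ADCK5 and MROH1 held from 1 to 5. Of the 888 gene positions 22 (2.48%) had an unadjusted limma p under 0.05, against 3.86% of all qualifying positions, 13 of them higher and 9 lower in the high-GL bulls. Of the 33 tested tiles at these genes, 3 had an unadjusted p under 0.05, in NRG2, WWP2 and MYH10, against 4.81% of all tiles. The smallest limma adjusted p was 0.906 for a position and 1 for a tile.

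The 9 QTL windows, 1 Mb on each side of the lead variant, held 615 tested tiles. Of these 25 (4.07%) had an unadjusted p under 0.05, against 4.81% of all tiles, and the smallest limma adjusted p was 1. They were higher in the high-GL bulls in 20 cases and lower in 5, beside 1470 higher and 752 lower among all tiles with such a p. The window of ZNF613, chr18:57141989-59141989, held 9 of the 25 tiles, all higher in the high-GL bulls, among 81 tested tiles. Its mean was 62.9% (H03), 63.1% (H09), 62.8% (L03) and 61.2% (L05) against 61.1% (H02), 57.2% (H05), 57.2% (L01) and 62.0% (L07). H05 and L01 lay below all other bulls, while L07 lay above L05. The window also held 1 of the 34 called positions described further on, the only one among the 17595 qualifying positions of the 9 windows. Of all qualifying positions 0.00236% were called, so 1 call is too few to set the windows apart. The direction of this call was the opposite. At chr18:57887312, outside any tested tile, H03, H09 and L05 had 0%, and H02, H05, L01 and L07 had 63.6%, 58.3%, 53.3% and 63.6% (limma adjusted p = 0.0176). L03 was not listed there, and no other qualifying position lay within 200 bp. Of the 2215 qualifying positions of the window, 121 (5.46%) had an unadjusted p under 0.05, against 3.86% of all. In the other 8 windows the difference ran from -0.135 to 1.17 points and the groups overlapped.

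Within the BTA18 window 8 of the 9 tiles fell in the 96 kb of chr18:57618001-57714000, a segment chosen after its values were seen. It ends 387 kb before ZNF613 starts. Over its 38 tested tiles the mean was 74.0% in H03, 70.7% in H09, 71.3% in L03 and 73.0% in L05, and 69.2% in H02, 66.7% in H05, 67.1% in L01 and 69.9% in L07. The groups did not overlap, with a difference of 4.02 points. A difference of 19.4 points was the largest of a tile, at chr18:57692001-57694000, with 75.8%, 77.1%, 58.6% and 80.7% against 62.3%, 49.98%, 49.2% and 53.0%, where L03 lay among the low-GL bulls. Of the 988 positions of the segment, 676 (68.4%) were higher in the high-GL bulls, against 53.3% of all qualifying positions. In the 11 tested tiles within 100 kb outside it the difference was 3.52 points. The 7 bulls without a GL label that had a value in every tile covered 63.8% to 71.7%.

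Single positions gave the calls that tiles did not. With limma, 34 of the 1438785 qualifying positions (0.00236%) had an adjusted p under 0.05 and a difference over 5 points, 17 higher and 17 lower in the high-GL bulls, on 16 autosomes. None of the 34 was listed by all 8 bulls: 13 were listed by 7 and 21 by 6. Differences were large, from 46.7 to 100 points with a median of 64.6.

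The 5 positions with the smallest p show the pattern. At chr20:2421057 the high-GL bulls all had 0%, and H02 and H05 had 100% and L01 93.8%, with L07 not listed (limma adjusted p = 0.00252). At chr20:2421025, which is 32 bp away, H03 had 6.25%, the other high-GL bulls 0%, and H02, H05 and L01 100% (limma adjusted p = 0.00252). The position chr22:3493882 had 100% in H03, 92.9% in L03 and 88.9% in L05 against 0%, 0%, 0% and 8.33% in H02, H05, L01 and L07 (limma adjusted p = 0.0039). At chr3:92463109 the same high-GL bulls had 64.3%, 81.8% and 63.6% and the low-GL bulls all 0% (limma adjusted p = 0.0132). At chr28:30760142, H09, L03 and L05 had 54.5%, 72.7% and 66.7%, and again the low-GL bulls all had 0% (limma adjusted p = 0.0132).

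The 34 positions were chosen for large differences with little spread, which by itself sets the values of GL bulls apart, so their levels are a description. Of 217 values in GL bulls, 110 lay below 15%, 52 between 35% and 65% and 38 above 85%, and 17 lay elsewhere. In all 34 positions the mean of 1 group lay below 15%, opposite a mean near 50% in 18 positions, above 85% in 13 and between these bands in 3. Over all qualifying positions 18.1% of the values lay below 15%, 6.73% between 35% and 65% and 58.6% above 85%. The 10 bulls without a GL label gave 187 values at these positions, of which 68 lay below 15%, 63 between 35% and 65% and 29 above 85%. At 30 of the 34 positions these bulls lay on both sides of the midpoint of the GL groups.

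The adjacent base was listed by at least 2 bulls of each group at 3 positions. It was taken as the other strand of the CpG, which was not checked because no sequence was used. At all 3 the adjacent base differed in the same direction, by 43.3 beside 46.7 points at chr16:75959542, by 31.5 beside 61.4 points at chr6:110479508 and by 25 beside 49.0 points at chr16:54116055. Other positions within 200 bp were listed for 29 of the 34, and their mean difference in the direction of the call had a median of 2.44 points. It was within 5 points of 0 at 15 and over 20 points at 7 of the 29. Among those 7 were chr20:2421057 and chr20:2421025, and chr17:6384437 and chr17:6384477. Each of these pairs lay within 200 bp, so each position counted its called partner among its neighbours. The means of these pairs are therefore not independent of the calls. The rest of the 7 had no other called position within 200 bp. They were chr17:6526987 (92.5 points over 2 neighbours), chr1:113161991 (34.2 points over 5) and chr1:113152626 (28.5 points over 4). Of the 34 called positions, 8 lay within 10000 bp of another. Only 4 of the 34 positions lay in a tested tile, 2 of which had an unadjusted p under 0.05. After bisulfite treatment an unmethylated cytosine and a thymine of the genome give the same read, and the part of sequence differences between bulls in these values was not tested. With the kind of file (counts listed or not) as a term in limma, 0 of the 34 remained, their adjusted p running from 0.0843 to 0.869 and their unadjusted p reaching at most 2.9e-05. With a bull left out, limma called at most 2 positions, chr20:2421057 and chr20:2421025 without L07. L07 was not listed at either position, so leaving it out removed none of their values. Without L01 only chr20:2421057 was called, and without any of the other bulls no position was.

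**Figure D4:**
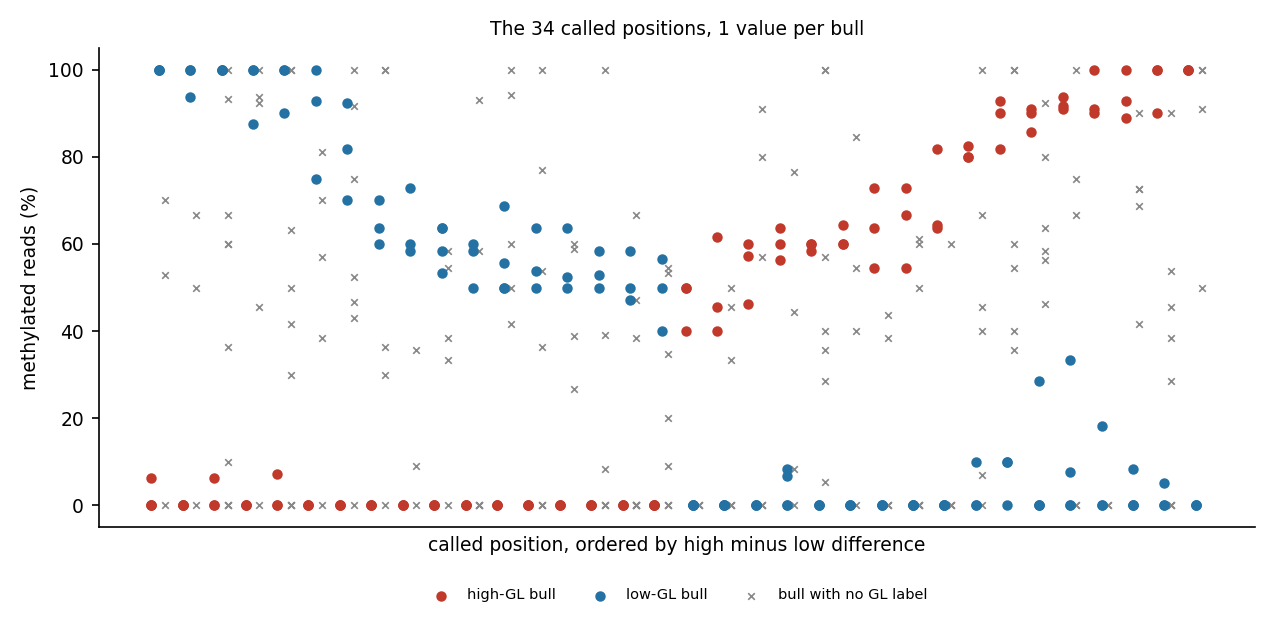
Percent of methylated reads (vertical axis) at the 34 called positions, 1 column per position ordered by the difference, with 1 point per GL bull and a cross per bull without a GL label. One GL group had a mean below 15% in each column, with single bulls of it up to 33.3%, and the crosses lay on both sides of the midpoint of the GL groups in 30 of the 34 columns.

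Differences of neighbouring positions were weakly correlated. Single positions rest on few reads, with a median of 13 or 14 where counts were listed. The part of counting error in the correlations was not tested. Described across positions, which share bulls and libraries, the Pearson correlation of the difference was 0.167 for the 110874 pairs of adjacent bases, 0.217 for pairs 2 to 10 bp apart, 0.0753 at 51 to 200 bp and 0.0398 beyond 1000 bp and up to 5000 bp. For 10376 pairs of adjoining tiles it was 0.258.

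Larger domains were compared in bins of 1 Mb with at least 100 qualifying positions per bull. None of the 1886 bins had a limma adjusted p under 0.05 (0.0% called), and 87 (4.61%) had an unadjusted p under 0.05, of which 86 were higher in the high-GL bulls. The median difference of all bins was 0.430 points, and 82.8% of the bins were higher in the high-GL group. At chr23:4000001-5000000 the mean was 74.5% in H03, 77.4% in H09, just under 80% in L03 and 79.5% in L05, and 74.1%, 70.7%, 73.4% and 70.9% in H02, H05, L01 and L07. The groups did not overlap, though H03 and H02 were close, and the difference of 5.58 points had a limma adjusted p of 0.658. This bin also holds the tile chr23:4078001-4080000 named above. The bins chr11:83000001-84000000 (87.5% ± 0.394 against 85.2% ± 0.622) and chr28:35000001-36000000 (84.3% ± 0.541 against 81.5% ± 1.32) followed. Without H09, 326 bins had an unadjusted p under 0.05, 325 of them higher in the high-GL bulls, and 1 bin passed the adjusted threshold, chr1:113000001-114000000 with 6.93 points. Without H03 the bin on chr23 passed it (adjusted p = 0.0291). Other bulls moved the count the opposite way: without L03 it was 57 bins, 45 higher and 12 lower, and without H05 it was 44, 40 higher and 4 lower. Without H02 it was 149, all of them higher. All 29 autosomes had a higher mean over tiles in the high-GL bulls, by 0.156 to 0.868 points, and for none was the exact permutation p under 0.05 (smallest adjusted p = 0.644).

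**Figure D5:**
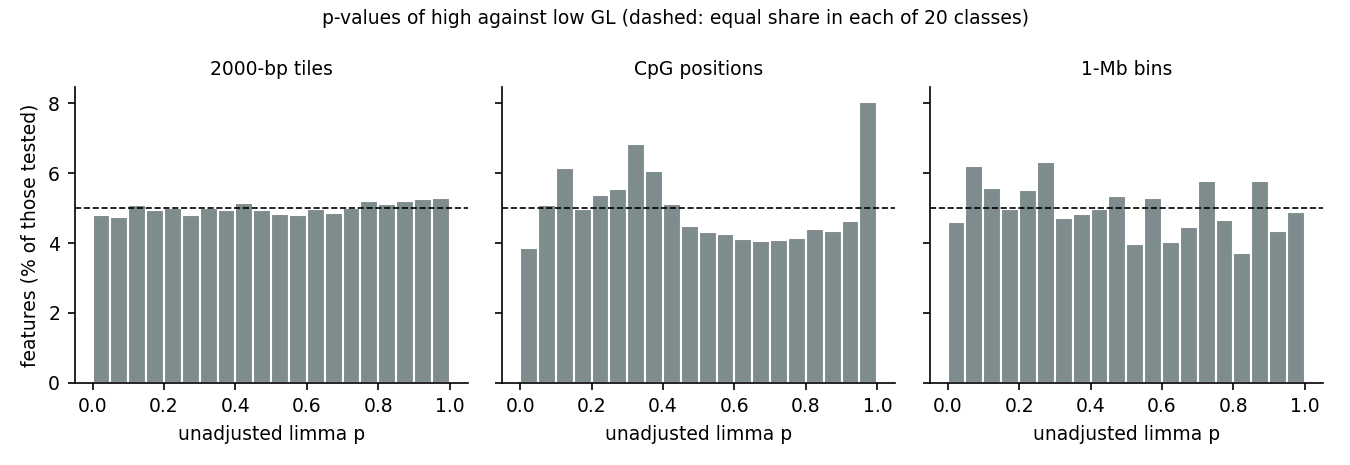
Unadjusted limma p of the comparison of high with low GL (horizontal axis, 20 classes) as percent of the tiles, positions and bins tested. The lowest class held 4.81% of the tiles, 3.86% of the positions and 4.61% of the bins, below the 5% of an even distribution.

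The GL groups held 2 bulls of each kind of file, so the comparison was also made inside each kind. In the bulls with listed counts the median tile difference was 0.423 points and in the others 0.236 points. Both differences had the same sign in 49.7% of the 46179 tiles. Across these tiles, which are not independent, their Pearson correlation was 0.0206. Where both differences were over 10 points, which was the case in 424 tiles, 56.4% had the same sign. The 4 bulls with listed counts are also those with an SCR label, so file and SCR label cannot be told apart.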

How the data were processed

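Sperm DNA of 18 Holstein bulls had been sequenced after bisulfite conversion, and the 8 bulls with a GL label were used. Per the labels and the submitters' processing notes, the authors trimmed reads with Trim Galore 0.4.0 after FastQC 0.11.2, mapped them to UMD 3.1 with Bowtie2 and called methylation with Bismark 0.14.5. The deposited values are the percent of methylated reads per position with at least 10 reads, and for some bulls the deposited count of reads. The authors tested tiles by logistic regression of read counts. As counts were listed for 4 of the 8 bulls only, and reads of a bull are no replicates, limma 3.58.1 (R 4.3.3, trend and robust prior) on 1 percent value per bull was used here, with Benjamini-Hochberg adjustment. Bull means and correlations were tested by exact permutation of bulls, two-sided.

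Named were the 10 tiles of smallest p, the 5 largest losses and gains among tiles of at least 10 positions without overlap, the tile of smallest p at each fine-mapped gene, 5 positions, 3 bins and 3 runs. Gene and QTL coordinates (UMD 3.1) came from the study's supplementary data. The members and lists were chosen with earlier results of these data known. Imprinted, sperm, placental and growth gene lists were not analysed here, nor was the sperm label checked, since no annotation of this build was used.

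On simulated data for the GL comparison of 46179 tiles, limma called 11 of 50 tiles changed by 10 points, 29 of 50 by 20, 43 of 50 by 30 and 50 of 50 by 50, and 6 unchanged tiles. All changed tiles were in 1 fit, with normal noise independent between tiles. Calls of large changes ease the adjusted threshold for others, so these rates can be too high where few tiles differ. In the bulls, -36.0 points at chr8:28764001-28766000 had a limma adjusted p of 0.795. Figures were drawn with matplotlib 3.10.9 in Python 3.11.15.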

Additional observations from a re-analysis of the deposited data

Results flagged for a closer look

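In 7 of 86 groups of 4 values 1 bull lay far from the other 3 (Dixon's test at 95%), a test that flags about 1 in 20 groups by chance. Among the fine-mapped genes, L03 had 88.3% at LOC107131356, where the other high-GL bulls had 94.3% to 95.4%. At NFYB, L01 had 26.6% and the other low-GL bulls 30.6% to 31.2%. In the tile at chr7:21350001-21352000, H02 had 51.8% and the other low-GL bulls 64.5% to 65.7%. At chr18:14532001-14534000, H09 had 19.7% and the other high-GL bulls 14.8% to 15.6%. The low-GL bull L07 had 97.4% at chr26:21432001-21434000, beside 86.0% to 86.4% in its group, and 55.0% at chr29:5714001-5716000, beside 47.0% to 47.5%. At chr22:15686001-15688000, H02 had 68.9% and the other low-GL bulls 76.0% to 76.5%.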

How the results depend on the processing

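No paired analysis was possible because the bulls of both groups share no replicate number, litter or batch in the labels. A match of bulls by their other trait labels, which is not unique (H02 shares SCR with H03 and body depth with L03), was not run. The count of 0 called tiles held in the alternatives run except 3. It was 1 where 1 bull of each group could be missing (chr20:2420001-2422000, -53.1 points, adjusted p = 0.0336, the tile of the positions named on chr20) and 0 to 1 when a bull was left out, the 1 tile being chr7:50398001-50400000 without H05 (37.6 points, adjusted p = 0.0354). It was 627 in the logistic regression with an assumed 10 reads a position and no overdispersion, while the median overdispersion was 1.38. Of the 627, 162 had groups without overlap, beside 1279 (2.77%) of all 46179 tested tiles. The 627 were called for their difference in the same values, so this separation is no support for them. With overdispersion and an F test the count of called tiles was 0. Unadjusted p under 0.05 was reached by 5220 and 891 tiles in these tests, and by 2027 to 2383 with a bull left out.

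The count of 34 called positions became 93 on the log2 scale (all 34 included), 0 with the kind of file as a term and 0 to 2 with a bull left out. Among positions listed by all 8 bulls 0 were called. None of the 34 is among those positions, so that count is no test of them. The count of bins called was 0 to 1 with a bull left out (H03 or H09), and bins with an unadjusted p under 0.05 were 44 (without H05) to 326 (without H09). They were 57 without L03 (45 higher, 12 lower) and 149 without H02.

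With a bull left out the difference of the bull mean ran from -0.0927 to 0.765 points over all positions, from -0.167 to 0.605 under 20%, from -0.207 to 1.92 between 20% and 80% and from 0.0992 to 0.62 over 80%. The mean correlation within minus between groups was -8.89e-05, 0.00115 with Spearman's correlation, 0.0482 with values centred within the kind of file and -0.000491 to 0.000588 with a bull left out. None of these permutation tests passed 0.05. The groups of the 20 named tiles do not overlap, so leaving out a bull cannot turn their direction, and that none turned is no sign of stability.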
